A study of Homo sapiens with 32 samples.

Results

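Ribosomal protein pseudogenes were examined as a class across all libraries of the polysome screen. The annotation of the files names 921 pseudogenes, out of 60554 genes in all, whose symbol is RPL or RPS with the number of a ribosomal protein gene, followed by P and a number. Copies of genes without that number, RPSA and RPLP0 to RPLP2, have other symbols and are not among them (83 pseudogenes, 3 with a mean of at least 1 CPM). Of the 921, 322 had no count in any library, and 39 members were chosen by their level, a mean of at least 1 CPM (counts scaled to a library total of 1000000) over all 32 libraries. The level is therefore what selected them and is given below as a description. The 39 members held 96.1% of the counts of these 921 in the median library. They comprised 33 processed pseudogenes, 4 transcribed processed pseudogenes and 2 transcribed unprocessed pseudogenes, RPL23AP82 and RPL32P3. The members closest to the limit were RPS7P10 (1.03 CPM), RPL4P5 (1.05 CPM) and RPS7P11 (1.07 CPM) inside it, and RPS3AP5 (0.917 CPM), RPL7AP30 (0.853 CPM) and RPL9P25 (0.800 CPM) outside it.

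The 39 members are copies of 25 parent genes. A processed pseudogene arises when a mature mRNA is reverse transcribed and inserted back into the genome, so it lacks the introns and usually the promoter of its parent. Ribosomal protein genes have more such copies than most gene families in the human genome. Their mRNAs carry a 5′ terminal oligopyrimidine (TOP) tract and leave polysomes when the kinase mTOR is inhibited, whereas a transcript from a pseudogene starts at another promoter and need not carry that tract. Reads of a recent copy and of its parent are hard to tell apart, because the sequences are nearly the same.

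The study compared MCF10A, an immortalised mammary epithelial line that does not form tumours, with MDA-MB-231, a line from a triple-negative breast carcinoma. Cells were kept in normoxia (N, 21% O2) or in hypoxia (H, 0.5% O2 for 24 h), and PP242, an ATP-competitive inhibitor of the mTOR kinase, was given at 2.5 µM for 3 h in normoxia (NPP) or hypoxia (HPP). Total mRNA (T) and polysome-bound mRNA from sucrose gradients (P) were sequenced for each condition, with 2 biological replicates in each of 16 groups, 8 per line. By the study's methods, the control cells were given the solvent of PP242, DMSO. The medium of MCF10A alone had added EGF, hydrocortisone, cholera toxin and insulin, and library barcodes form a separate series in each line. Differences between the lines cannot be told apart from differences in these. The titles give each T library and a P library of its condition the same number, which is taken here as the same culture. Library totals ran from 18340916 to 46032327 counts, with a median of 34561484.

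Some libraries stood apart before any comparison. Ribosomal protein genes took 17.4% of all counts in MCF10A NPP T replicate 2 and 9.73% in replicate 1, and the 39 members summed to 1712 and 939 CPM. In MCF10A N P the ribosomal protein genes took 14.3% of counts in replicate 1 and 8.90% in replicate 2, and in MCF10A HPP P 2.72% and 1.43%. For several results the value without such a library is given beside them. The keratins KRT5 (1838 CPM, median of 16 libraries) and KRT14 (1613 CPM), markers of basal epithelium, were high in the libraries labelled MCF10A and had medians of 0 and 0.272 CPM in MDA-MB-231. Other epithelial markers were near 0 in the libraries labelled MCF10A, with medians of 0.0831 CPM for CDH1, 0.0368 CPM for TP63 and 0.289 CPM for EPCAM. MCF10A therefore stands below for the libraries so labelled, in the differences between the lines too. Of 11 basal epithelial markers, 7 had the higher median in MCF10A, and so had 5 of 10 mesenchymal markers, with FN1 at 2965 CPM against 136 CPM in MDA-MB-231. Of 4 markers of other cell types, the leukocyte gene PTPRC and the hepatocyte gene ALB had medians under 1 CPM in both lines, while the fibroblast gene COL1A1 had 7.45 CPM in MCF10A and 11.2 CPM in MDA-MB-231 and the endothelial gene PECAM1 0.614 and 1.31 CPM. Their part in the results was not tested. The hormone receptor genes ESR1 and PGR had medians under 1 CPM in both lines, and the receptor gene ERBB2 had 88.1 to 215 CPM in MCF10A and 22.5 to 49.5 CPM in MDA-MB-231.

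Stretches of 120 bases are shown for 5 members beside the coding sequence of the parent. They are given because members that kept step with the parent and those that did not differed in the median of sequence shared with it. The ranges of both kinds overlapped. Sequences are read 5′ to 3′ from GRCh38 with the GENCODE 44 annotation, and capitals mark the bases at which member and parent differ. The first is the most abundant member, RPL9P9 (579 bases, chr15:82372310-82372888, minus strand), on the strand opposite to the lncRNA gene UBE2Q2P2, with coding bases 247 to 366 of RPL9.
RPL9P9: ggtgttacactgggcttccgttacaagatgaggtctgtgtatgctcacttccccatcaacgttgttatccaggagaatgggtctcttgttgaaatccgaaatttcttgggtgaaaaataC
RPL9: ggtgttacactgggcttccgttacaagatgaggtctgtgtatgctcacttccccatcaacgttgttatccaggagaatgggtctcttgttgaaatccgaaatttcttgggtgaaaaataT
RPL23AP42 (471 bases, chr3:161429127-161429597, minus strand) and RPL23AP7 (469 bases, chr2:113611779-113612247, minus strand) are both copies of RPL23A, the first shown at coding bases 258 to 377 and the other up to coding base 231.
RPL23AP42: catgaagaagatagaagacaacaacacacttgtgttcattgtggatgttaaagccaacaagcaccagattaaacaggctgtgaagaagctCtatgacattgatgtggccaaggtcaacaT
RPL23A: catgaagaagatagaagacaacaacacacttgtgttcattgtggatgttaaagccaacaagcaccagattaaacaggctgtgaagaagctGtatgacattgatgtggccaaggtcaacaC
RPL23AP7: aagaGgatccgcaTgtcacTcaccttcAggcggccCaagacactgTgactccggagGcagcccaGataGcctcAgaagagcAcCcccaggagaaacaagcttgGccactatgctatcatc
RPL23A: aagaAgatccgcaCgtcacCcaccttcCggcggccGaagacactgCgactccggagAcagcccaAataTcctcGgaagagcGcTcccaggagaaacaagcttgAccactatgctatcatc
RPL13AP20 (609 bases, chr12:12875499-12876107, plus strand) lies in no other annotated gene and is shown at coding bases 184 to 303 of RPL13A. RPL24P2 (475 bases, chr20:21114723-21115197, plus strand), shown at coding bases 18 to 137 of RPL24, is the copy with the lowest identity among those that kept step with the parent.
RPL13AP20: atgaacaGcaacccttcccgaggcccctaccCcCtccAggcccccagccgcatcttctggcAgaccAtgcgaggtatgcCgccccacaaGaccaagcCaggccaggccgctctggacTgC
RPL13A: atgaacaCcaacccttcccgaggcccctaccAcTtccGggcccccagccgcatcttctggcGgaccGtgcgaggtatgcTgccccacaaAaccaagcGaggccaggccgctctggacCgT
RPL24P2: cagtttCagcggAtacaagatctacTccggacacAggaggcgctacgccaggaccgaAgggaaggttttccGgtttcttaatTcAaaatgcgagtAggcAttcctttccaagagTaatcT
RPL24: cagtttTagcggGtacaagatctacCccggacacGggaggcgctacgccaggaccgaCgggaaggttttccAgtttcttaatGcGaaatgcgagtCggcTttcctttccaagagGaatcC
The stretch of RPL9P9 held 1 substitution and that of RPL23AP42 held 2, whereas RPL13AP20 held 11, RPL24P2 12 and RPL23AP7 13. Each is the gap-free stretch of its length with the most substitutions. Over their aligned length RPL9P9 had 1 substitution, RPL23AP42 2, RPL13AP20 20, RPL24P2 24 and RPL23AP7 36.

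All 39 members were found in GENCODE 44 by gene ID, 35 of them in the same version. They lay on 19 chromosomes, 38 of them on another chromosome than the parent. An annotated transcript, of a single exon where available in the pseudogene class, was taken for each, and 38 were such. Length, identity and windows describe that transcript and not the whole gene that was counted. The median identity with the parent mRNA, over the aligned part, was 98.7%, with a range from 85.8% to 100%. In 15 members the parental reading frame was open over the whole coding sequence. Inside another annotated gene lay 19 members, 8 of them on the strand of that gene, and 4 overlapped one of its exons on the same strand. RPL18AP3 is in TXNRD1, the gene of a thioredoxin reductase, RPL12P16 in an exon of NBEAL1, and RPL32P29 in an exon of RPS29. Library preparation was not stated to keep the strand, so reads of a member and of a gene around it cannot be told apart.

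Exact matches were counted for every 76-base window of a member, the length of 1 read of a pair. In 22 of the 39 members at least 50% of the windows also occurred in an annotated transcript of another gene, and in 5 members all windows did. RPS28P7 and RPL39P3 were identical with their parents over their whole length. The counting program (RSEM) splits reads with more than 1 possible origin according to estimated abundance. The counts of these members depend on that division, so their levels and their changes are uncertain.

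Levels were very uneven. RPL9P9 had a mean of 357 CPM, RPS2P5 87.4 CPM, RPL23AP42 33.0 CPM and RPL23AP82 31.7 CPM over the 32 libraries. RPL13AP5 followed at 14.8 CPM, RPL18AP3 at 14.3 CPM and RPS28P7 at 13.9 CPM, and the other 32 members were under 10 CPM. A count above 0 was found in all 32 libraries for 37 members. Per length, RPL9P9 reached 616 CPM per kb, which is 63.6% of the 969 CPM per kb of RPL9, a protein of the large ribosomal subunit, when 724 bases are taken for the RPL9 mRNA. The length of RPL9P9 comes from GENCODE 44, where its gene version is not that of the files, so the value per kb is approximate. RPS2P5 (chr12:118246084-118246962, 879 bases) reached 99.4 CPM per kb, 5.68% of the 1748 CPM per kb of RPS2, a small subunit protein whose mRNA is taken as 945 bases.

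The summed level of the members was lower with PP242 in the polysomal fraction, given here as values without a test. CPM is a share of each library, so a lower value is relative to the other RNA in it, and in bulk samples fewer cells of a kind and less RNA per cell cannot be told apart. In MCF10A the members summed to 1212 and 804 CPM in N P, 775.8 and 516 CPM in H P, 352 and 409 CPM in NPP P, and 341 and 197 CPM in HPP P. In MDA-MB-231 they summed to 794 and 633 CPM in N P, 729 and 562 CPM in H P, 286 and 318 CPM in NPP P, and 235 and 260 CPM in HPP P. Both PP242 groups lay below both N and H libraries of the polysomal fraction in each line. In MCF10A T the sums were 935 and 1029 CPM in N, 939 and 1712 CPM in NPP and 909 and 1256 CPM in HPP, and both PP242 groups overlapped N. In MDA-MB-231 T they were 551 and 602 CPM in N and 573 and 583 CPM in NPP, which overlapped too. The MDA-MB-231 HPP T libraries, at 510 and 477 CPM, lay below N of the same line. RPL9P9 held more of these sums than all other members together in each MDA-MB-231 library, but less than they did in the MCF10A libraries other than N P. Without RPL9P9 both PP242 groups of the polysomal fraction again lay below both N and H libraries in each line, while the NPP P and HPP P libraries of MDA-MB-231, apart with it, overlapped. In MDA-MB-231 T the NPP libraries (204 and 193 CPM) lay below N (208 and 219 CPM) too.

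**Figure D1:**
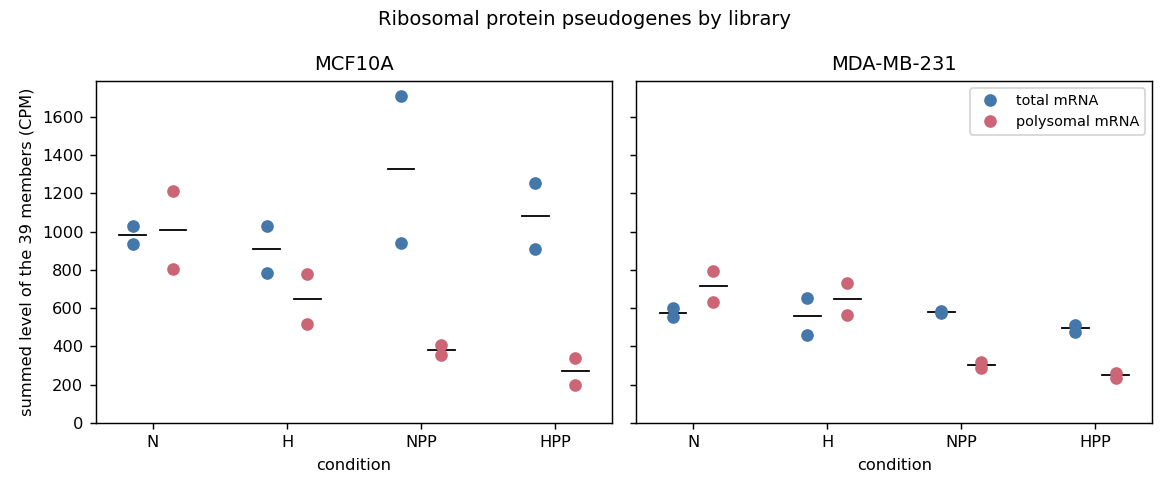
Summed level of the 39 members in CPM (y axis) in each library, by condition (x axis: N normoxia, H hypoxia, NPP and HPP the same with PP242), for total (blue) and polysomal mRNA (red) of both lines. Points are the 2 replicates and bars their mean. In polysomal mRNA the PP242 libraries lie at 197 to 409 CPM and the others at 516 to 1212 CPM.

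In polysomal mRNA the counts of most members changed under hypoxia together with PP242 in both lines. Where reads are shared with the parent, a change of the member cannot be told apart from that of the parent. By edgeR's quasi-likelihood test with Benjamini-Hochberg adjustment over all genes and a threshold of 0.05, 31 of 39 members fell and 1 rose in MCF10A HPP P against N P. Among all 16723 genes tested, 10.6% fell and 8.16% rose. The median log2 fold change (log2FC) of the members was −2.72, and that of all genes −0.04. In MDA-MB-231, 29 of 38 members tested fell and 2 rose, beside 8.19% and 8.86% of 16995 genes, with a median log2FC of −1.88 for the members and 0.05 for all genes. RPS2P7, at 0 to 0.273 CPM in that line, was the member not tested. Of the 38 members tested in both lines, 28 fell in both, 93.3% of the MCF10A list and 96.6% of the MDA-MB-231 list. With most members called in each line a large overlap follows, and of all genes tested in both lines 800 fell in both, 46.9% of the MCF10A list and 58.7% of the MDA-MB-231 list. The others called lower were RPL13P12 and RPL24P4 in MCF10A, with RPS2P7 that was tested there alone, and RPS28P7 in MDA-MB-231, named after their values were seen.

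RPL9P9 had 665 and 410 CPM in MCF10A N P and 121 and 68.6 CPM in HPP P, a log2FC of −2.81 ± 0.53 (standard error, SE, n = 2 per group, edgeR adjusted p = 0.0043). In MDA-MB-231 it had 524 and 429 CPM in N P and 132 and 136 CPM in HPP P (log2FC −1.99 ± 0.20, edgeR adjusted p = 2.2e-05). The groups did not overlap in either line, and the parent RPL9 changed by −2.72 and −1.95. RPS2P5 had 209 and 124 CPM in MCF10A N P and 48.5 and 23.8 CPM in HPP P (log2FC −2.52 ± 0.62, edgeR adjusted p = 0.016). RPL23AP42 had 56.7 and 57.8 CPM and then 13.5 and 9.47 CPM (log2FC −2.58 ± 0.51, edgeR adjusted p = 0.0056). Their parents RPS2 (−2.51) and RPL23A (−2.56) had nearly the same log2FC.

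The lowest log2FC in MCF10A belonged to RPL26P19, RPL12P4 and RPS23P8, copies of genes for 2 large subunit proteins and 1 small subunit protein. RPL26P19 had 4.27 and 3.54 CPM in N P and 0.149 and 0.268 CPM in HPP P (log2FC −4.45 ± 0.53, edgeR adjusted p = 0.00043). RPL12P4 fell by 4.43 ± 0.87 on the log2 scale (edgeR adjusted p = 0.0053) from 88 and 44 counts to 6 and 1 counts, so that fold is imprecise. In MDA-MB-231 the lowest were RPL12P4 (−3.53 ± 0.67, 0 and 6 counts in HPP P), RPL39P3 (−3.08 ± 0.42) and RPL12P16 (−2.98 ± 0.52). RPL39P3 is identical with RPL39 over its whole length, so its counts rest on the division of shared reads. The counts of calls depended on single libraries. In MCF10A 18 members were called without N P replicate 1 (7.38% of all genes in either direction) and 9 without HPP P replicate 2 (5.5%), where the fit of all libraries called 18.8% of genes. In MDA-MB-231 it was 20 without N P replicate 1 (7.96%) and 14 without HPP P replicate 1 (5.02%), beside 17.1% with all libraries.

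Copies of large and small subunit genes both fell. In MCF10A HPP P 22 of 29 large subunit copies fell and 1 rose (median log2FC −2.72), and 9 of 10 small subunit copies fell (median −2.78). In MDA-MB-231 20 of 29 large subunit copies fell and 2 rose (median −1.61), and 9 of 9 small subunit copies tested fell (median −2.28). The difference between the subunits was not tested.

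With PP242 in normoxia fewer members were called in P. In MDA-MB-231 NPP P 16 of 38 members fell and 0 rose, where 1.24% of all genes fell, and the median log2FC was −1.40. In MCF10A NPP P no member was called, where 0.568% of all genes were called in either direction, although the median was −1.68. An unadjusted p under 0.05 was found there for 29 of 39 members and for 2018 of 16723 genes. DESeq2 called 17 members lower in MCF10A NPP P (3.64% of all genes in either direction), edgeR without the filter on low counts 20 (1.49%), and edgeR with the replicate number as a block within each fraction 19 (3.59%). The common biological variation was larger in MCF10A, with a coefficient of 0.349 against 0.161 in MDA-MB-231. RPL13AP5, RPS3AP6 and RPL12P16 fell most in MDA-MB-231. RPL12P16 fell from 3.51 and 1.54 CPM to 0.455 and 0.505 CPM (log2FC −2.53 ± 0.50, edgeR adjusted p = 0.017), RPS3AP6 from 15.1 and 9.51 CPM to 2.52 and 2.84 CPM (log2FC −2.35 ± 0.41, edgeR adjusted p = 0.0070), and RPL13AP5 from 17.7 and 15.0 CPM to 3.00 and 4.58 CPM (log2FC −2.26 ± 0.31, edgeR adjusted p = 0.0012). Each library with PP242 was below both normoxic libraries for these 3 members. The count of 16 became 4 without N P replicate 1 (0.835% of genes in either direction), 3 without NPP P replicate 1 (0.602%) and 4 without NPP P replicate 2 (0.802%), beside 1.9% with all libraries.

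The difference between the lines in the polysomal change with PP242 was tested in a joint fit of all 32 libraries, where line, medium and barcode series cannot be separated. No member of 39 was called by edgeR, where 0.0857% of 18670 genes were called, and DESeq2 called no member either. An unadjusted p under 0.05 was found for 0 members and 735 genes. The median difference of the members, MDA-MB-231 minus MCF10A, was 0.20 on the log2 scale, against 0.07 over all genes. Its direction rested on single libraries, since it was −0.32 without MCF10A N P replicate 1, −0.03 without MDA-MB-231 N P replicate 2 and 0.58 without MCF10A N P replicate 2.

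Hypoxia alone called almost no member. In MCF10A H P 0 of 39 were called (1.11% of genes in either direction), with a median log2FC of −0.70 and 37 members below 0. No member had an unadjusted p under 0.05, where 1976 of 16723 genes did. The median was −0.13 without N P replicate 1, −0.45 without H P replicate 2, −1.09 without N P replicate 2 and −1.08 without H P replicate 1. In MDA-MB-231 H P 0 of 38 were called (1.91% of genes), and 1 by DESeq2. The median was −0.14 and ran from −0.67 without H P replicate 1 to 0.17 without N P replicate 1. An unadjusted p under 0.05 was found for 6 of 38 members and 2798 of 16995 genes, about the same share. In MCF10A H T 0 members were called (1.14% of genes), by DESeq2 likewise 0. There 0 members and 1704 of 16723 genes had an unadjusted p under 0.05. In MDA-MB-231 H T 1 member rose, RPL32P29, where 0.871% of genes rose. With a replicate block 2 members were called in each fraction of that line, beside 1.82% (T) and 3.82% (P) of genes.

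In total mRNA few members were called with PP242. No member was called in MCF10A NPP T (0.395% of genes) or MDA-MB-231 NPP T (0.359% of genes), and DESeq2 called 0 in both. In MCF10A NPP T 1 member and 1391 of 16723 genes had an unadjusted p under 0.05. In MDA-MB-231 NPP T it was 1 member and 1607 of 16995 genes. The median of the members in MCF10A was 0.73, and 1.23 without NPP T replicate 1. It was −0.07 without NPP T replicate 2, the library with the high share of ribosomal protein counts. In MCF10A HPP T 1 member rose, RPL23AP7, where 5.88% of genes rose, and in MDA-MB-231 HPP T 2 rose, RPL32P29 and RPL23AP7, where 5.9% of genes rose. The medians over the members were 0.34 and −0.20. The MCF10A median was −0.08 without HPP T replicate 2 and 0.81 without HPP T replicate 1, and that of MDA-MB-231 ran from −0.30 to −0.14. With a replicate block 3 members rose in MCF10A, where 21.9% of genes were called in either direction. Leaving out any of the 4 libraries compared ended the call in MCF10A (2.64% to 6.93% of genes in either direction, beside 12% with all libraries), and gave 1 call in MDA-MB-231 (2.63% to 5.33%, beside 10.4%).

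**Figure D2:**
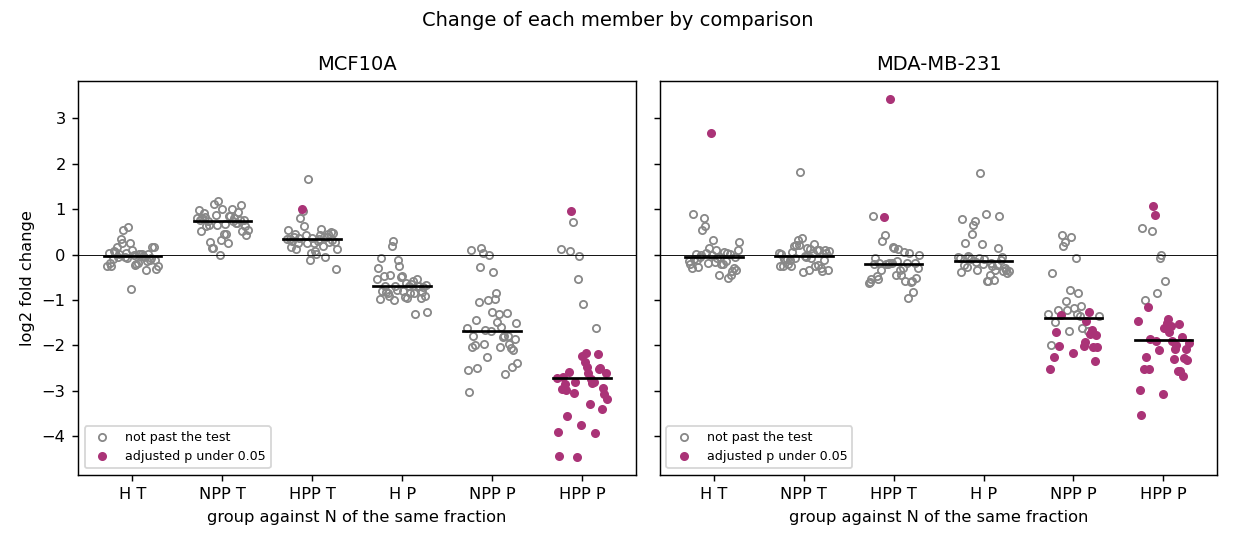
Log2 fold change of each member (y axis) against normoxia of the same fraction, for 3 treatments in total (T) and polysomal (P) mRNA (x axis), in MCF10A (39 members) and MDA-MB-231 (38 members). Filled points passed an adjusted p of 0.05, open points did not, and bars are medians, which are −2.72 and −1.88 in HPP P.

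Translational efficiency (Te), the change in P beyond that in T, was tested as an interaction in the same fits, without a term for the culture that T and P share. In MCF10A no member and no gene at all was called for any treatment (0.0% of 16723 genes). For H, NPP and HPP 0, 29 and 32 members had an unadjusted p under 0.05, beside 66, 477 and 639 of all genes. DESeq2 called 0, 4 and 22 members, beside 0.149% and 0.975% of genes for NPP and HPP. A replicate block within each fraction gave 0, 0 and 25 calls, with 1.06% of genes for HPP, and a block by culture 0 for each treatment. The medians over the members were −0.71, −2.53 and −3.06. With 1 library left out the H median ran from −1.10 (H P replicate 1) to −0.12 (N P replicate 1), the NPP median from −2.94 (NPP T replicate 1) to −1.60 (NPP T replicate 2), and the HPP median from −3.46 to −2.43. In MDA-MB-231 no member was called for H, where 0.0118% of genes were, and DESeq2 called 0 members. There 1 member and 290 of 16995 genes had an unadjusted p under 0.05. For NPP 2 members fell, RPL13AP5 (−2.16 ± 0.43, edgeR adjusted p = 0.039) and RPL9P9 (−1.55 ± 0.28, edgeR adjusted p = 0.025), where 0.459% of genes fell. For HPP 4 members fell, where 0.688% of genes fell, and RPL39P3 (−3.24 ± 0.57, edgeR adjusted p = 0.0097) had the lowest value of the 4, followed by RPL18AP3 (−2.33 ± 0.41) and RPL13AP5 (−2.32 ± 0.43). The value of RPL39P3 rests on the division of reads shared with RPL39, with which it is identical. The parents had 18 and 24 of 25 called lower in Te for NPP and HPP in MDA-MB-231. With a block by culture the NPP count was 0 (0.0235% of all genes in either direction) and the HPP count 3 (0.547%). The NPP count was also 0 without any one of the libraries compared except N P replicate 2, with 0.0711% to 0.274% of genes called where it was 0, and the HPP count was 1 without HPP T replicate 1 (0.476%) or HPP P replicate 1 (0.399%) and 2 without N T replicate 1 (0.486%) or N P replicate 1 (0.497%).

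P was also compared with T in normoxia. In MDA-MB-231 the median log2 ratio of P to T was 0.47, with 0.18 without N P replicate 1 and 0.73 without N P replicate 2, and 3 members were called, all lower in P, where 9.66% of genes were lower. They were RPL41P2 (−2.18 ± 0.36, edgeR adjusted p = 0.0019), RPS28P7 (−0.98 ± 0.25, edgeR adjusted p = 0.018) and RPL32P3 (−0.94 ± 0.28, edgeR adjusted p = 0.034). RPS28P7 is identical with RPS28 over its whole length, so its counts rest on the division of shared reads. RPL41P2 had 4.00 and 3.54 CPM in T and 0.694 and 0.831 CPM in P, and its parent RPL41, which encodes one of the shortest ribosomal proteins, had a log2 ratio of −1.80. Leaving out single libraries gave 1 or 2 calls, 1 without N T replicate 1 (4.97% of genes in either direction), N T replicate 2 (6.04%) or N P replicate 1 (5.43%), beside 15.8% with all libraries. A replicate block within each fraction gave 7 calls, 3 of them higher in P, with 20.6% of genes called. In MCF10A no member and no gene was called (0.0% of genes), and DESeq2 called 0 members. An unadjusted p under 0.05 was found for 3 members and 2653 of 16723 genes. With a replicate block within each fraction 1 member and 4.11% of genes were called. The median of the members was 0.52, which was −0.01 without N P replicate 1 and 0.90 without N P replicate 2.

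Each member was then set beside its parent. In MCF10A HPP P the member log2FC minus the parent log2FC had a median of −0.01, and 28 of 39 members lay within 0.5 of the parent. In MDA-MB-231 the median was −0.06 and 27 of 38 lay within 0.5. Counts of member and parent share reads where the sequences are identical, so closeness between them was not independent. The parents themselves fell in 23 of 25 cases in MCF10A HPP P and in 25 of 25 in MDA-MB-231, with medians of −2.85 and −1.90. In NPP P 0 and 24 of 25 were called, and 23 of 25 in MCF10A had an unadjusted p under 0.05, beside 2018 of 16723 genes. Members furthest below the parent in NPP P were RPS23P8, RPS7P11 and RPS3AP26 in MCF10A, with differences of −0.63, −0.55 and −0.52 on the log2 scale, and RPS7P10, RPL7P1 and RPS3AP6 in MDA-MB-231. Furthest above it in MCF10A were RPL32P3 (2.70), RPL13AP20 (2.11) and RPL32P29 (1.72), and in MDA-MB-231 RPL32P3 (1.91), RPL23AP53 (1.52) and RPL13AP20 (1.36).

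The share of the member in the summed counts of member and parent varied little in the pair of RPL9P9 and RPL9 and much in others. RPL9P9 took 33.3% to 36.3% of RPL9P9 plus RPL9 in the 16 MCF10A libraries and 30.2% to 32.9% in the 16 MDA-MB-231 libraries. In RPL9P9, 84.9% of the windows were identical with RPL9. RPL18AP3 varied more, with 1.32% to 1.73% in MCF10A and 0.899% to 1.35% in MDA-MB-231. RPL23AP82 took 0.875% to 10.4% of RPL23AP82 plus RPL23A in MCF10A and 0.886% to 5.72% in MDA-MB-231, with the highest values in HPP P of both lines.

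**Figure D3:**
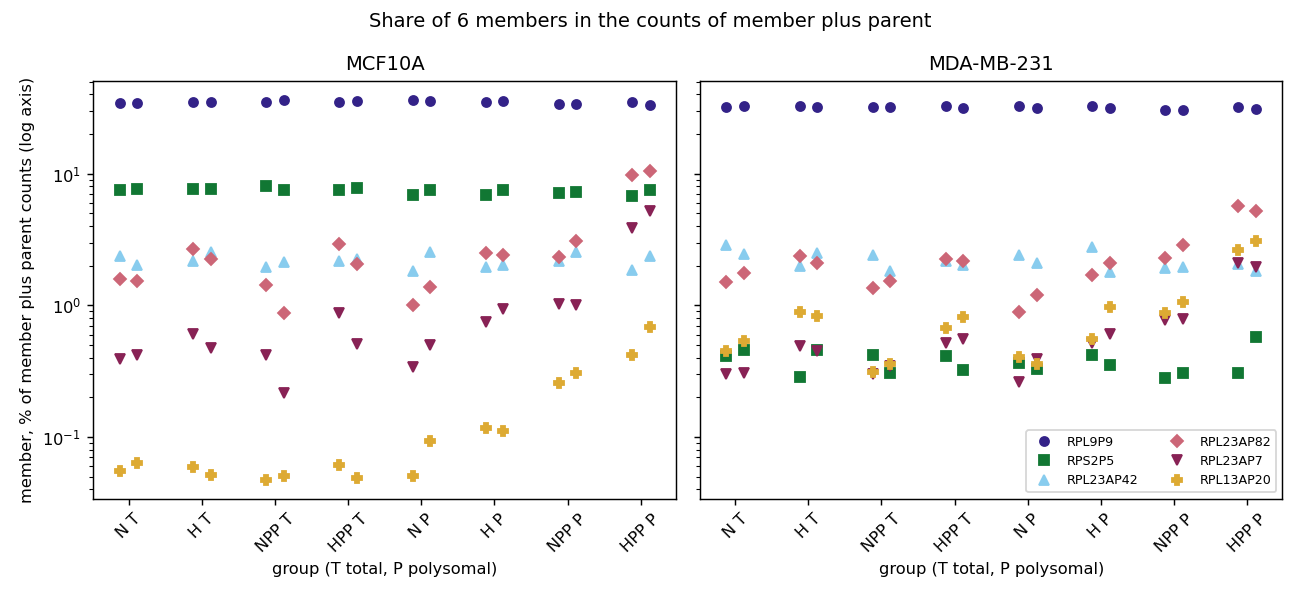
Share of a member in the counts of member plus parent, in % on a log axis (y axis), for 6 members in each library (points, 2 per group) of the 8 groups (x axis) of each line. RPL9P9 stays between 30.2% and 36.3%, while RPL23AP82, RPL23AP7 and RPL13AP20 are highest in HPP P.

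Likeness was described by Pearson's correlation of log2 CPM between member and parent over the 16 libraries of a line, which share treatments and normalisation and, for many pairs, reads. Unlike the CPM given above, these values were scaled by edgeR's TMM factors of the joint fit, with a prior count of 2. In MCF10A 33 members had a correlation of at least 0.7, from 0.894 to 0.999, with RPL9P9, RPL18AP3 and RPS2P5 the highest. In MDA-MB-231 these 33 ran from 0.250, for RPS2P7 with its near-zero counts, to 0.998, with RPL9P9, RPS28P7 and RPL12P16 the highest. The other 6 members, RPL23AP82, RPL23AP7, RPL23AP53, RPL13AP20, RPL32P3 and RPL32P29, ran from −0.487 to 0.629 in MCF10A and from −0.387 to 0.331 in MDA-MB-231. This division was made after the values were seen, so no test is given for it. Identity with the parent was 85.8% to 96.7% in the 6 members and 94.7% to 100% in the 33. Of the 76-base windows, a median of 0% was shared with the parent in the 6, with RPL13AP20 the highest at 10.5%, and a median of 43.5% in the 33. Windows shared with genes other than the parent were common in the 6 as well, with 100% of RPL23AP82 and RPL32P29, 65% of RPL32P3 and 63.2% of RPL23AP7, and the median of windows found in no other gene was 35.9% in the 6 and 47.1% in the 33. RPL24P2 shared 1.25% of its windows with RPL24 and RPL5P34 shared 8.09% with RPL5, both large subunit proteins. Windows count exact matches only, so how many reads of these pairs can be told apart is not known. RPL24P2 had correlations with the parent of 0.982 (MCF10A) and 0.956 (MDA-MB-231), and RPL5P34 of 0.966 and 0.897.

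**Figure D4:**
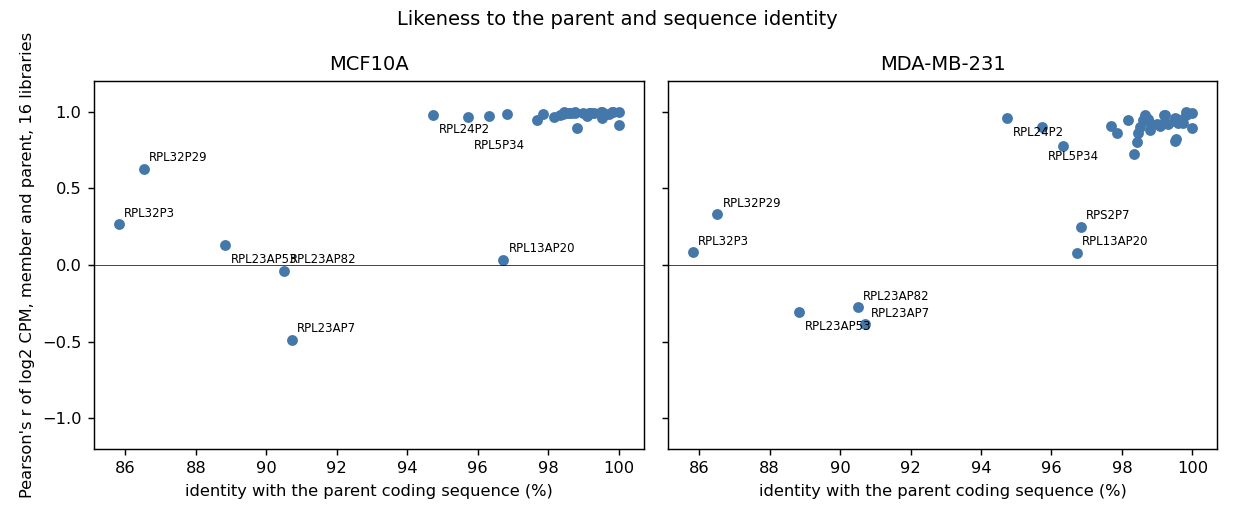
Pearson's correlation of log2 CPM between each member and its parent over the 16 libraries of a line (y axis) against identity in % (x axis), 39 members per line. Identity is that with the aligned part of the parent mRNA, although the axis names the coding sequence. The 6 members under 0.7 in MCF10A have 85.8% to 96.7% identity, and RPL24P2, at 94.7%, lies with the other 33.

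In HPP P the 6 members lay above their parents. They were chosen by low likeness over libraries that include these, so the differences restate that choice and are a description. In MCF10A they exceeded the parent by 2.64 to 3.85 on the log2 scale, and in MDA-MB-231 by 2.13 to 2.93, while no other member exceeded its parent by more than 0.54 and 0.84. None of the 6 was called lower in P in any comparison with PP242. In Te this order did not hold for RPL32P29 in MDA-MB-231, which lay 1.10 (NPP) and 1.45 (HPP) below RPL32 on the log2 scale. RPL24P2, with 12.4 and 5.60 CPM in MCF10A N P and 1.90 and 0.852 CPM in HPP P, fell by 3.05 ± 0.68 on the log2 scale (edgeR adjusted p = 0.010), beside a log2FC of −3.07 for RPL24. In MDA-MB-231 it had 5.88 and 4.68 CPM in N P and 1.09 and 2.02 CPM in HPP P (log2FC −1.90 ± 0.31, edgeR adjusted p = 0.0011).

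**Figure D5:**
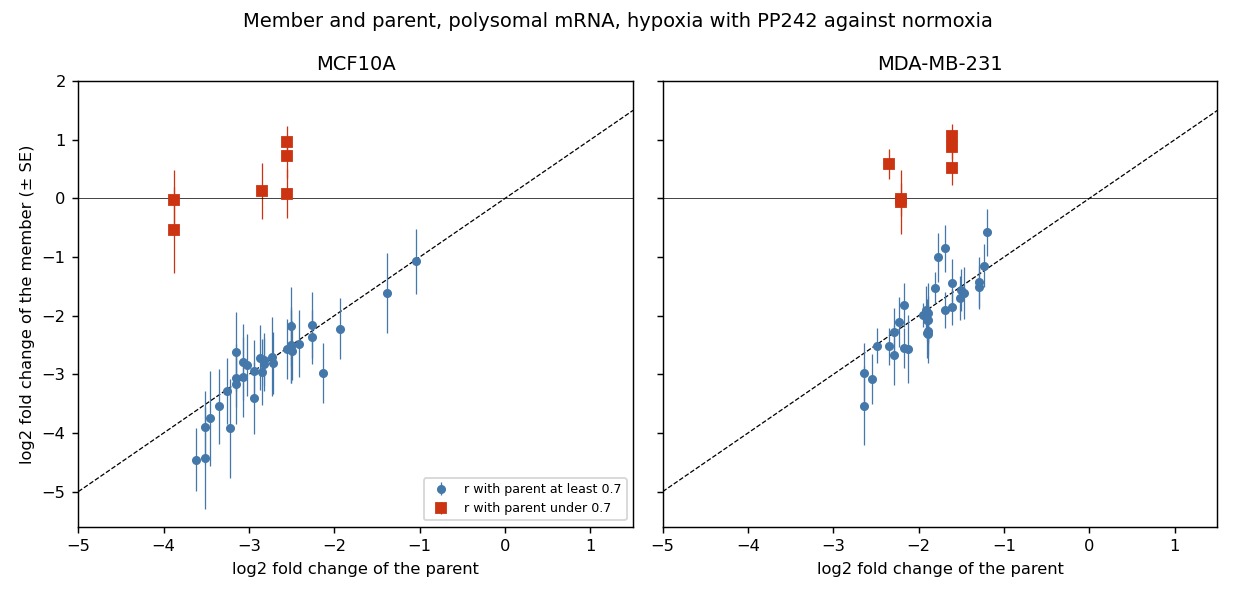
Log2 fold change of each member with its SE (y axis) against that of its parent (x axis) in polysomal mRNA under hypoxia with PP242, in both lines. Blue points are the 33 members with a correlation of at least 0.7 with the parent in MCF10A (32 tested in MDA-MB-231), red squares the other 6, which lie 2.13 or more above the dashed line of equal change.

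Copies of RPL23A, a large subunit protein near the exit of the peptide tunnel, showed both patterns. RPL23AP42 (99.6% identity, 73.5% of windows shared) fell with RPL23A as given above. RPL23AP7 (90.7% identity) shared 0% of its windows with RPL23A but 63.2% with other annotated genes, so its reads cannot be fully told apart from theirs. It had 10.4 and 11.1 CPM in MCF10A N P and 28.7 and 21.1 CPM in HPP P, and it rose (log2FC 0.96 ± 0.28, edgeR adjusted p = 0.031). In MDA-MB-231 it had 3.92 and 4.96 CPM in N P and 10.4 and 10.2 CPM in HPP P, and it rose too (log2FC 1.06 ± 0.20, edgeR adjusted p = 0.0033). The HPP libraries were above the N libraries in both lines. RPL23AP7 also rose in HPP T, from 8.38 and 9.60 CPM to 17.3 and 14.0 CPM in MCF10A (log2FC 1.01 ± 0.28, edgeR adjusted p = 0.035) and from 2.97 and 3.33 CPM to 5.05 and 5.52 CPM in MDA-MB-231 (log2FC 0.82 ± 0.21, edgeR adjusted p = 0.027). Its Te changed by −0.05 ± 0.39 and 0.24 ± 0.30 in HPP, neither past the test. The MCF10A call in P was lost without any 1 of the 4 libraries compared.

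RPL23AP82 (chr22:50798655-50799123, plus strand, 90.5% identity) had 13.4 and 15.3 CPM in MDA-MB-231 N P and 29.5 and 28.7 CPM in HPP P, and it rose (log2FC 0.87 ± 0.20, edgeR adjusted p = 0.0085). The call was lost without N P replicate 1 or HPP P replicate 1. In MCF10A it had 31.1 and 30.8 CPM and then 76.7 and 45.1 CPM (log2FC 0.72 ± 0.37, edgeR adjusted p = 0.20). In GENCODE 44 all of its windows also occur in an lncRNA gene on the same strand that carries the symbol RPL23AP7, and its gene version differs from that of the files, so the counts may include other exons of that locus. The values of RPL23AP7 and RPL23AP82 are therefore uncertain as separate measurements. RPL23AP53, on chromosome 8, had 1.09 and 1.30 CPM in MCF10A N P and 1.31 and 1.66 CPM in HPP P, and was not called in any comparison.

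RPL13A, a large subunit protein, also had copies of either kind. RPL13AP5 (99.5% identity) had 21.7 and 21.4 CPM in MCF10A N P and 4.19 and 2.43 CPM in HPP P (log2FC −2.96 ± 0.56, edgeR adjusted p = 0.0045), beside −2.85 for RPL13A. RPL13AP20 (96.7% identity) had 1.37 and 1.82 CPM and then 2.23 and 1.83 CPM (log2FC 0.12 ± 0.48, edgeR adjusted p = 0.90). In MDA-MB-231 RPL13AP20 had 8.13 and 7.17 CPM in N P, 10.7 and 16 CPM in H P, 5.03 and 7.73 CPM in NPP P and 12 and 13.5 CPM in HPP P, and none of these changes passed the test. Its libraries in H and HPP were above both N libraries in that line.

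Copies of RPL32, another large subunit protein, did not follow it. RPL32P29 had 0.514 and 0.109 CPM in MDA-MB-231 N T, 1.39 and 2.71 CPM in H T, 1.31 and 1.04 CPM in NPP T and 3.28 and 3.71 CPM in HPP T. It rose in H T (log2FC 2.68 ± 0.52, edgeR adjusted p = 0.022) and in HPP T (log2FC 3.43 ± 0.51, edgeR adjusted p = 0.0011), from 14 and 2 counts in N T. In P it had 0.572 and 0.308 CPM in N, 1.53 and 1.51 CPM in H and 0.343 and 0.556 CPM in HPP, and the N and HPP libraries overlapped (log2FC −0.07 ± 0.55, edgeR adjusted p = 0.95). Its Te in HPP was −3.50 ± 0.76 and did not pass the test (edgeR adjusted p = 0.057), beside −2.04 for RPL32. All its windows lie in transcripts of RPS29, the host gene, which had 549 and 610 CPM in N T, 471 and 663 CPM in H T and 522 and 505 CPM in HPP T. RPL32 changed by 0.08 and −0.16 in the same comparisons. The call in H T was lost without N T replicate 2 or H T replicate 2. RPL32P3 was called only in P against T of MDA-MB-231, given above.

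Between the lines, 32 of 39 members had the higher mean in MCF10A, a description since level chose the members. Medium and barcode series differ with the line and cannot be told apart from it. RPS2P5 had a mean of 170 CPM in MCF10A and 4.58 CPM in MDA-MB-231, 37.2 times as much, while RPS2 libraries of the lines overlapped. RPS2P5 took 6.81% to 8.01% of RPS2P5 plus RPS2 in MCF10A and 0.282% to 0.570% in MDA-MB-231, and the groups did not overlap. RPS2P7, another copy of RPS2, had 5.04 and 0.0694 CPM, and RPS2P46, likewise a copy of it, had 12.3 and 3.34 CPM. RPL13AP20 was the other way round, with 1.64 CPM in MCF10A and 10.1 CPM in MDA-MB-231, and RPL39P3 had 3.36 and 7.54 CPM.

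Lists of ribosomal protein genes and other TOP mRNAs, chosen with earlier results of these data known, give the setting. Of 47 large subunit genes 46 fell in MCF10A HPP P and 47 in MDA-MB-231, with medians of −2.85 and −1.89, and of 32 small subunit genes 28 and 32 fell, with medians of −2.90 and −2.04. RPL8 fell by 2.58 ± 0.60 and RPS3A by 2.94 ± 0.55 on the log2 scale in MCF10A. Of 15 other TOP mRNAs 11 and 12 fell, with medians of −1.77 and −1.09. EEF1A1, a translation elongation factor and the most abundant of them, fell by 2.06 ± 0.46 and 1.55 ± 0.14. Other processed pseudogenes with a mean of at least 1 CPM, without the copies of RPSA and RPLP0 to RPLP2, numbered 169 by symbol. Of these, 48 of 165 tested fell and 7 rose in MCF10A HPP P, with a median of −0.74, and 41 of 167 fell and 8 rose in MDA-MB-231, with a median of −0.28. Symbols that name only a clone do not show the parent, so further ribosomal protein copies may be among them.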

How the data were processed

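RNA was measured by poly(A) RNA-seq (read pairs of 76 bases) in 32 libraries. The authors aligned reads with STAR and deposited expected counts per gene from RSEM, rounded to whole numbers and not normalised. Their methods name GRCh38 with GENCODE 24, whereas the labels' processing notes name GRCh37, so coordinates here come from GENCODE 44 on GRCh38. The authors tested protein-coding genes, and all classes were kept here, since pseudogenes would otherwise be lost.

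Genes were filtered with filterByExpr (minimum count 10), scaled by TMM and tested with edgeR 4.0.16 in R 4.3.3, in 1 fit per line of 16 libraries (8 residual degrees of freedom) and a joint fit of 32 for the difference between lines. P-values were adjusted over all genes tested, at a threshold of 0.05. The code was tested on simulated counts. With 2 libraries per group, an exact two-sided permutation test cannot go below p = 0.333, so single values have no such test. Library totals of 18340916 to 46032327 counts limit precision for members near 1 CPM.

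Members and lists were chosen with earlier results of these data known. Named genes were the 12 members highest in mean CPM, the 3 largest changes called per direction and comparison, the 3 most and 3 least like the parent and the 3 furthest above and below it in NPP P, their parents, those at the CPM limit, and up to 4 genes of a list by level. Sequences were compared with Biopython 1.88. Since titles tie T and P of a culture, Te was also fitted with a block by culture. The alternatives were DESeq2 1.42.0, other scaling, no filter beyond 1 read, only the libraries compared, a replicate block and leaving out each library.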

Additional observations from a re-analysis of the deposited data

Results flagged for a closer look

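In each line the T and P changes of the members were checked for opposite movement, where every treated library of one line lay above its normoxic libraries and every treated library of the other line lay below. This held for 5 of 234 checks. No share over all genes was taken for this rule, so whether 5 is many or few is not known. None of the 5 differences was tested, and no change in them passed the adjusted threshold in either line by edgeR's quasi-likelihood test. For RPL13AP20 in H T the difference, MDA-MB-231 minus MCF10A, was 1.16 on the log2 scale, from a log2FC of −0.25 in MCF10A and 0.90 in MDA-MB-231. For RPL41P2 in H P it was 1.69, from −0.79 and 0.90. For RPL7P9, a copy of the large subunit gene RPL7, the difference in NPP T was −0.99, from 0.73 and −0.26. For RPL14P1, a copy of RPL14, it was −0.92 in HPP T, from 0.46 and −0.46, and for RPS3AP6 −0.67 in HPP T, from 0.49 and −0.18. The MCF10A value of RPL7P9 includes the NPP T library with 17.4% of its counts in ribosomal protein genes, and its part in the result was not tested.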

How the results depend on the processing

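Of 246 alternative counts of 21 results, 184 stayed within 1.5 times the main count and 62 did not. Scaling by RLE or by TMM from protein-coding genes alone moved none beyond that. Of 268 alternative values of 24 named changes, 194 kept their call, 74 lost it and 0 reversed. The members' median kept its sign under all alternatives in 12 of 21 comparisons. The causes of these shifts were not tested. In HPP P the median ran from −3.06 to −2.22 in MCF10A and from −2.08 to −1.51 in MDA-MB-231, and in NPP P from −2.05 to −1.16 and from −1.67 to −1.17.

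Percentages beside counts are shares of all genes called in either direction under the same setting. DESeq2 gave 17 calls for MCF10A NPP P (edgeR 0), 1 for MDA-MB-231 H P (edgeR 0, 3.94% of genes), 4 and 22 for MCF10A Te in NPP and HPP (edgeR 0 and 0), 5 and 10 for MDA-MB-231 Te (edgeR 2 and 4, 0.671% and 1.02% of genes), and 5 for P against T in MDA-MB-231 (edgeR 3, 18.7% of genes against 15.8% by edgeR). Without the filter the counts were 20 for MCF10A NPP P, 3 for MDA-MB-231 H T (1.92%), 3 for H P (2.02%), 1 for NPP T (1.16%) and 30 for NPP P (2.12%, and 1.9% with the filter). They were 20 and 28 for MCF10A Te in NPP and HPP (0.57% and 0.716%), 18 and 23 for MDA-MB-231 Te (0.672% and 0.924%), and 2 and 12 for P against T in MCF10A and MDA-MB-231 (1.64% and 9.62%). With only the libraries compared they were 1 for MCF10A NPP P (0.368%), 0 for MCF10A HPP T (6.33%), 0 for MDA-MB-231 H T (0.324%), 4 for HPP T (12.5%) and 5 for Te in NPP (0.58%).

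The titles tie T and P of a culture, but no label says that a replicate number marks a shared batch. Deviations of same-numbered libraries correlated over 0.1 in 6 of 6 pairs of groups within T of MCF10A (r from 0.27 to 0.74), 3 of 6 within P (−0.10 to 0.56) and 1 of 4 same-culture pairs (−0.18 to 0.27). In MDA-MB-231 it was 4 of 6 within T (−0.12 to 0.24), 4 of 6 within P (−0.02 to 0.25) and 2 of 4 same-culture pairs (0.02 to 0.26). With a replicate block by culture, Te in NPP had 0 calls in MDA-MB-231, and no other count moved beyond 1.5 times. With a replicate block within each fraction, the counts were 19 for MCF10A NPP P, 3 for HPP T, 25 for Te in HPP and 1 for P against T, and in MDA-MB-231 2 for H T, 2 for H P and 7 for P against T.

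Leaving out 1 library gave 9 to 31 calls in MCF10A HPP P (5.5% to 13.3% of genes) and 0 to 0 in HPP T (2.64% to 6.93%). In MDA-MB-231 it gave 14 to 30 in HPP P (5.02% to 9.18%), 3 to 11 in NPP P (0.602% to 1.02%), 1 to 1 in HPP T (2.63% to 5.33%), 0 to 1 in H T (0.371% to 0.782%), 0 to 2 and 1 to 6 in Te for NPP and HPP (0.0711% to 0.388% and 0.399% to 0.634%), and 1 to 2 in P against T (4.97% to 8.06%).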
